A study of Mus musculus with 8 samples.

Results

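The tumour necrosis factor (TNF) superfamily comprises the TNF-like ligands and their receptors. Its genes were taken as every protein-coding mouse gene whose symbol starts with Tnfrsf or Tnfsf, together with Tnf, Lta, Ltb, Ltbr and Fas. This gave 37 of 21887 protein-coding genes, of which 15 encode ligands and 22 encode receptors. FOS binding near them was read from chromatin immunoprecipitation and sequencing (ChIP-seq) of cortical microglia, isolated on a Percoll gradient and sorted, from 4 mice aged 30 days. These mice were killed 4 h after the cytokine IL-33 was given into the ventricle of 1 brain side. There was a FOS and an input library per mouse. Vehicle-injected mice were not analysed here, so nothing below compares treated with untreated cells. For these mice, genotype and strain were not given in the sources used here, nor were the sorting antibodies.

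TNF superfamily ligands are mostly trimeric proteins on the cell surface, some of which are shed. Some of their receptors carry a death domain and can start apoptosis, and many recruit TRAF adaptors and activate NF-kappaB and MAP kinases. Microglia are a main source of TNF in the inflamed brain. FOS is a subunit of the transcription factor AP-1, which is induced within minutes to hours of stimulation. The AP-1 motif was searched here as TGANTCA, where N is any base.

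The deposited table held 32773 regions on mm10 and no values per mouse. FOS peaks lay in 31473 of them, and 2848 held peaks from a further list, called the IL-33 list here because its column is named for IL-33 against vehicle. What assay gave this list was not given in the sources used here. Regions are termed shared where both lists had peaks, and otherwise FOS-only or IL-33-only. Each FOS region has a score of unknown scale that serves only to rank regions, with a median of 20.2 and a range from 3.47 to 142 over all FOS regions. Where the merge had averaged the zeros of the IL-33 list into a score, this was undone. FOS peak names end in a number between 1 and 4, here termed calls and taken as how many mice had the peak, which is inferred from its range. Calls are the only sign of agreement between mice, depth is unknown, and no test between groups could be made. In these pooled cells, a site bound in fewer cells and a site bound less often per cell cannot be told apart.

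Promoter sequence is shown first, because several of these genes carried a FOS region at their start. RefSeq promoters on GRCm38.p6, the assembly of mm10, ran from 250 bases before to 50 bases after a start site and matched 30 of the 37 genes. The 7 others were Tnfsf4, Tnfsf9, Tnfsf12, Tnfrsf10b, Tnfrsf11b, Tnfrsf22 and Tnfrsf26. The 250 bases before the start are printed 5′ to 3′ for Fas, Tnfsf13 and Tnfsf14, which had both a FOS region of 4 calls and the AP-1 motif TGANTCA, for Tnf as a gene with such a region and no match, and for Tnfrsf8 as a gene with a match and no region at its start. Capitals mark the motif.
Fas (chr19:34290409-34290658, plus strand): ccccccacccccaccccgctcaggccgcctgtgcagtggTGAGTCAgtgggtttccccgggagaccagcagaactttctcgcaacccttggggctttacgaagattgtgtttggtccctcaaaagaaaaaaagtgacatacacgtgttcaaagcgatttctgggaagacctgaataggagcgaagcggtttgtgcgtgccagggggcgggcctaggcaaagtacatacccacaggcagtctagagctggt
Tnfsf13 (chr11:69685555-69685804, minus strand): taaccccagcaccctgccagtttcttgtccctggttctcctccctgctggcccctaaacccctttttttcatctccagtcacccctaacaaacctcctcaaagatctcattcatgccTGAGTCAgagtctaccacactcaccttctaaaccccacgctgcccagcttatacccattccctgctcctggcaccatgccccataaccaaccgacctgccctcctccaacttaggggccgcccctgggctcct
Tnfsf14 (chr17:57194182-57194431, minus strand): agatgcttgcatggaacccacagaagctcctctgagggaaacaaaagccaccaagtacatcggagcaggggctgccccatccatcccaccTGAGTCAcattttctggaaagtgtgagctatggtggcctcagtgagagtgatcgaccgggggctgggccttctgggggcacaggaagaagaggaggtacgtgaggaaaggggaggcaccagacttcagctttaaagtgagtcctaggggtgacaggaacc
Tnf (chr17:35202008-35202257, minus strand): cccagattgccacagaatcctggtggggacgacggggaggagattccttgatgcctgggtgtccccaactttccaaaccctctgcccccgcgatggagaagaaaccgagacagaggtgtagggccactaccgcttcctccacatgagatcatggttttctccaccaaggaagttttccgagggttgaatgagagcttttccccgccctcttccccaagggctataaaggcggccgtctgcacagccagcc
Tnfrsf8 (chr4:145315165-145315414, minus strand): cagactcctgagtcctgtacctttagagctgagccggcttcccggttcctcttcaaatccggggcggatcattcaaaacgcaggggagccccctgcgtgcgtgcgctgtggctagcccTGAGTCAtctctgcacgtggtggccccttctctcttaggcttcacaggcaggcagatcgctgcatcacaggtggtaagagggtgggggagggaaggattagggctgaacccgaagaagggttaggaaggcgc

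A FOS region overlapped the promoter window of 15 of the 30 genes, against 29.7% of 17492 coding genes with a promoter. For 6 of the 30 genes the region had 4 calls, against 5.37% of the 17492 coding genes. These 6 were Tnf, Fas, Ltbr, Tnfsf13, Tnfsf13b and Tnfsf14. The motif TGANTCA, which reads the same on both strands, occurred in the window of 6 of the 30 genes, against 8.12% of all. All 6 matches read TGAGTCA, whereas the share of all genes counts any middle base. At Fas, the gene of a death receptor, the motif started 211 bases before the start site and lay inside the FOS region. At Tnfsf13b, which encodes the B cell survival factor BAFF, it started 127 bases before the downstream of 2 listed starts, within the gene body, and lay inside the region. At Tnfsf13, the gene of the related ligand APRIL, and at Tnfsf14, the gene of LIGHT, it lay 13 and 18 bases outside the edge of the region. Tnfrsf8 and Tnfrsf9 had the motif without a FOS region on the window. Of the 6 genes with a promoter region of 4 calls, 4 had the motif in the same window, whereas 73 of 939 such genes (7.77%) did among all coding genes. The windows of Tnf and Ltbr held no TGANTCA. The cyclic AMP response element TGACGTCA was in no window of these genes and in 2.54% of all. The NF-kappaB consensus, a pattern of 10 letters searched on both strands, was in 4 of 30 (13.3%), against 1844 of 17492 genes, and stood at Ltb, Tnfrsf8, Tnfrsf9 and Tnfrsf25. None of these matches overlapped a TGANTCA. These matches describe letters in a window and were not tested as binding sites. Only exact matches to the patterns were counted, so variant sites, also at Tnf and Ltbr, were not searched.

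FOS regions were frequent at TNF superfamily genes. Given to the nearest coding gene body within 100 kb, FOS regions were assigned to 26 of the 37 genes (70.3%), against 50.6% of all coding genes. At least 1 FOS region of 4 calls stood at 16 genes (43.2%), against 17.5%. Of 15 ligand genes 11 had a FOS region and 8 had a 4-call region, and of 22 receptor genes 15 and 8 did. The highest score per gene had a median of 35.1 over the 26 genes, and of 25.2 over 11075 coding genes with a FOS region. Together the genes held 76 different FOS regions, 27 of them with 4 calls (35.5%), against 23.0% of all assigned FOS regions. The median score of single regions was 22.3, close to the 20.6 of all assigned regions. Among the superfamily, genes with a FOS region had a median length of 13141.5 bp and those without 16940 bp. Over all coding genes these medians were 26502 and 9558 bp, in the opposite order. The farthest region assigned to a family gene lay 62382 bp from Fas, and without the distance limit no further region was added.

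**Figure D1:**
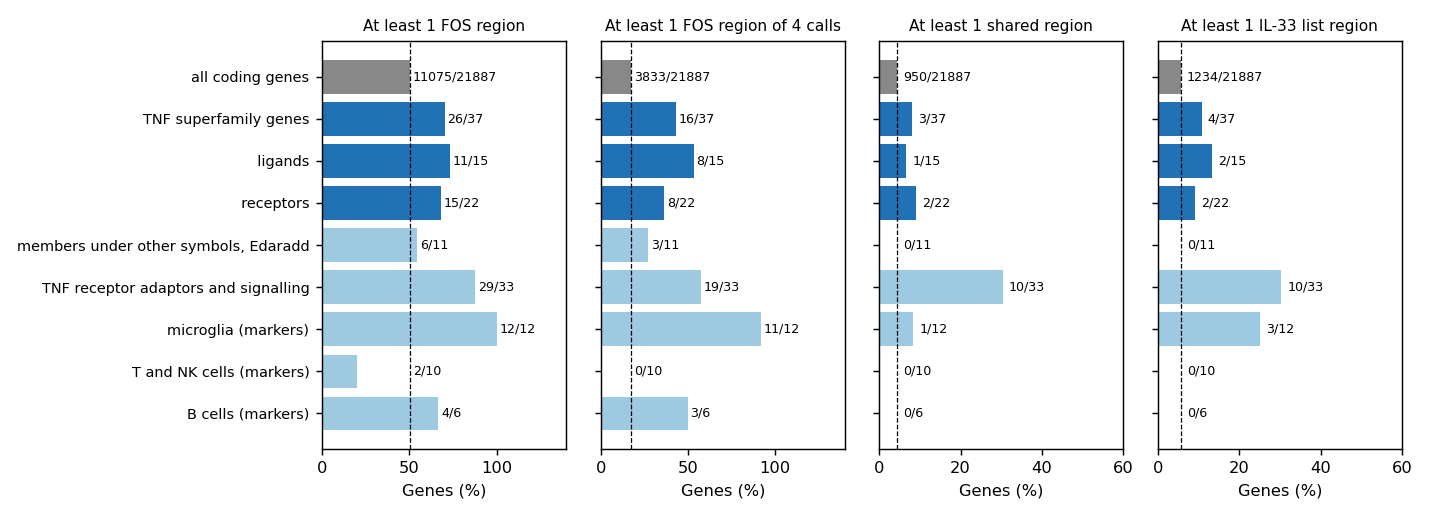
Share of genes with at least 1 region of each kind, for all coding genes, TNF superfamily genes, related gene lists and cell type markers. Bars are percentages with the number of genes beside them, and the dashed line is the share of all coding genes. The superfamily stands at 26 of 37 for FOS regions and at 3 of 37 for shared regions.

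Among ligand genes, Tnf itself had 2 FOS regions. The first scored 45.5 with 4 calls and lay across the start of the gene (chromosome 17, 35201938 to 35202328), higher than 93.0% of all FOS regions. The second scored 35.3 with 1 call and lay inside the gene. Tnf lies between Ltb and Lta, which encode the lymphotoxin chains that form lymphoid organs. Lta had a shared region of 1307 bp (chromosome 17, 35209296 to 35210603), 4371.5 bp outside the gene and 7942.5 bp before the start of Tnf. It joined 1 FOS peak of 4 calls with 3 peaks of the IL-33 list. Its score was 55.2 once restored and 13.8 as deposited. An IL-33-only region lay 1543.5 bp from it, centre to centre. Ltb had no region of its own, and the nearest FOS region lay 4145.5 bp away at Lst1. On the other side of Lta, FOS-only regions of 4 calls at Nfkbil1 scored 55.5 and 62.5. Within 45 kb of the Tnf start there were 15 FOS regions, 1 of them shared, and 3 IL-33-only regions. They also covered Aif1, which encodes the microglial protein IBA1, so assignment to single genes in this dense stretch depends on the rule.

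**Figure D2:**
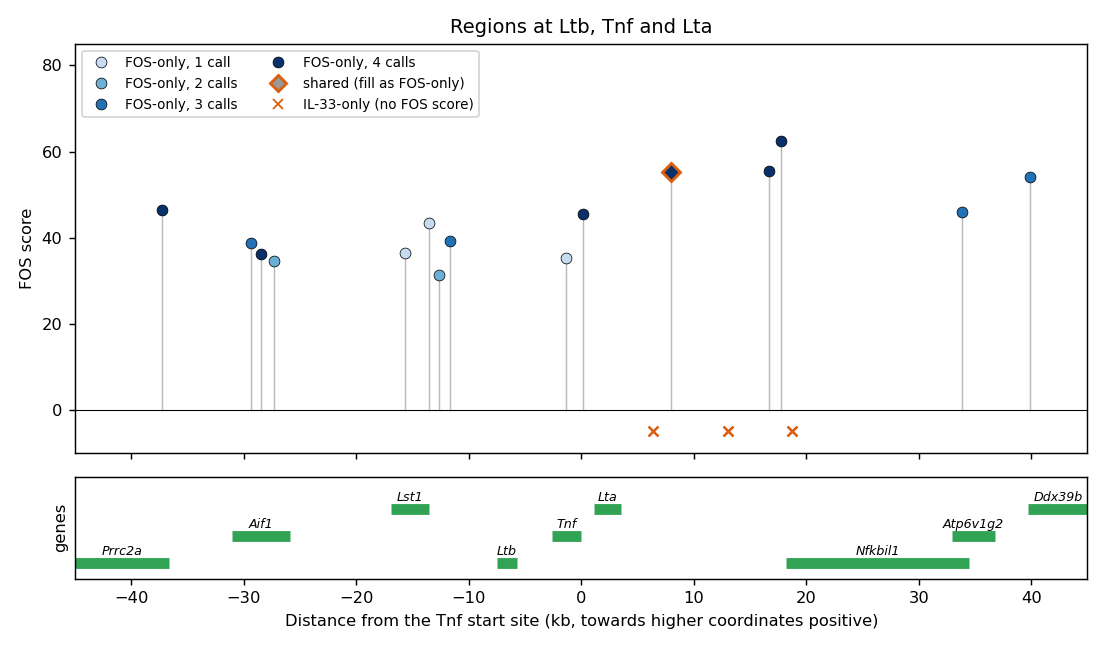
Regions around Tnf by distance of their centre from the Tnf start site in kb, with the FOS score on the vertical axis and genes below. Blue circles are FOS-only regions, darker with more calls, the orange-edged diamond is the shared region, and crosses below 0 are IL-33-only regions without a FOS score. The shared region scores 55.2 and the region at the Tnf start 45.5.

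The highest-scoring ligand gene was Tnfsf9, which encodes a T cell costimulatory ligand of myeloid cells. Its top region scored 61.5 with 4 calls (chromosome 17, 57112943 to 57113301) and lay 5364 bp outside the gene, and a region of 3 calls across a gene end scored 29.97. IL-33-only regions lay 478 and 6831 bp from the nearest FOS region, so Tnfsf9 carried peaks of both lists without a shared region. Tnfsf18, which encodes the GITR ligand, had 8 FOS regions, 4 of them with 4 calls. They spread from 30726 bp before to 65.87 kb after its start, scored from 6.4 to 53.2, and none was in the IL-33 list. Tnfsf13b had its highest region at its start, at 47.3 with 4 calls (chromosome 8, 10006392 to 10006722). Its other regions scored 11.4 with 3 calls and 4.96 with 1 call.

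The genes of TWEAK and APRIL, Tnfsf12 and Tnfsf13, adjoin each other and are also joined in a readthrough gene, Tnfsfm13. A region across the start of Tnfsfm13, a boundary that Tnfsf12 shares, scored 42.3 with 3 calls and was counted for both Tnfsf12 and Tnfsfm13. Another scored 33.1 with 4 calls (chromosome 11, 69685700 to 69686115) and went to Tnfsfm13 because its centre lay 353.5 bp outside Tnfsf13. By the rule Tnfsf13 therefore had no region, although its promoter window was covered. Tnfsf14 had a region of 29.3 with 4 calls at its start and a further region of 16.1 with 2 calls. Weaker ligand genes were Tnfsf8 (CD30 ligand), Tnfsf10 (TRAIL) and Tnfsf4 (OX40 ligand). Tnfsf8 had 6 regions, none above 17.1, of which 5 lay outside the gene and 1 had 4 calls, at 16.9. Tnfsf10 had a region of 16.0 with 3 calls at 33491 bp from the gene, and Tnfsf4 a region of 5.16 with 1 call.

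Of the 13 IL-33 list regions in the family, 9 lay at the neighbours Tnfrsf1b and Tnfrsf8, 8 of them assigned to Tnfrsf8. Peak names of the IL-33 list also end in a number, whose meaning is unknown. Its highest value per region was 1 for most of the 13 and never above 3. Tnfrsf1b encodes TNF receptor 2, which lacks a death domain and is expressed by microglia, and Tnfrsf8 encodes CD30. Both genes lie on chromosome 4, and 18 regions were assigned to them. Of these, 13 carried FOS, 4 were shared and 5 were IL-33-only. The highest score of the whole family, 73.4 with 4 calls, belonged to a shared region between the genes (chromosome 4, 145254301 to 145254801), 7.68 kb before the start of Tnfrsf1b. It stood above 99.0% of FOS regions, and as deposited it scored 36.7. A weaker shared region in the same interval scored 26.0 with 2 calls.

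Inside Tnfrsf1b, FOS-only regions of 4 calls scored 58.0 and 45.2, at 12.93 and 5.75 kb after the start. The region at the start itself scored 19.4 with 2 calls. In Tnfrsf8 the FOS regions lay towards the 3′ end of the gene. A shared region just inside its 3′ end scored 59.6 with 4 calls (chromosome 4, 145267609 to 145268123), and a FOS-only region 44.81 kb after the start scored 66.9 with 4 calls. A further FOS-only region scored 35.6 with 4 calls and a further shared region 21.6 with 3 calls. IL-33-only regions lay among them at 669 to 3335 bp from the nearest FOS region. The start of Tnfrsf8 carried no region of either list. With 8 regions, Tnfrsf8 was among 42 coding genes with at least that many regions of the IL-33 list. With 3 shared regions it was among 125 genes with at least as many. Centres of these 8 regions lay 10.73 to 40.07 kb from the Tnfrsf1b start and 28.22 to 57.56 kb from the Tnfrsf8 start. Both counts therefore depend on assignment to the nearest gene body. All IL-33 list regions of the pair lay within 32.9 kb. Regions of the 2 genes share a locus and are not independent of each other.

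**Figure D3:**
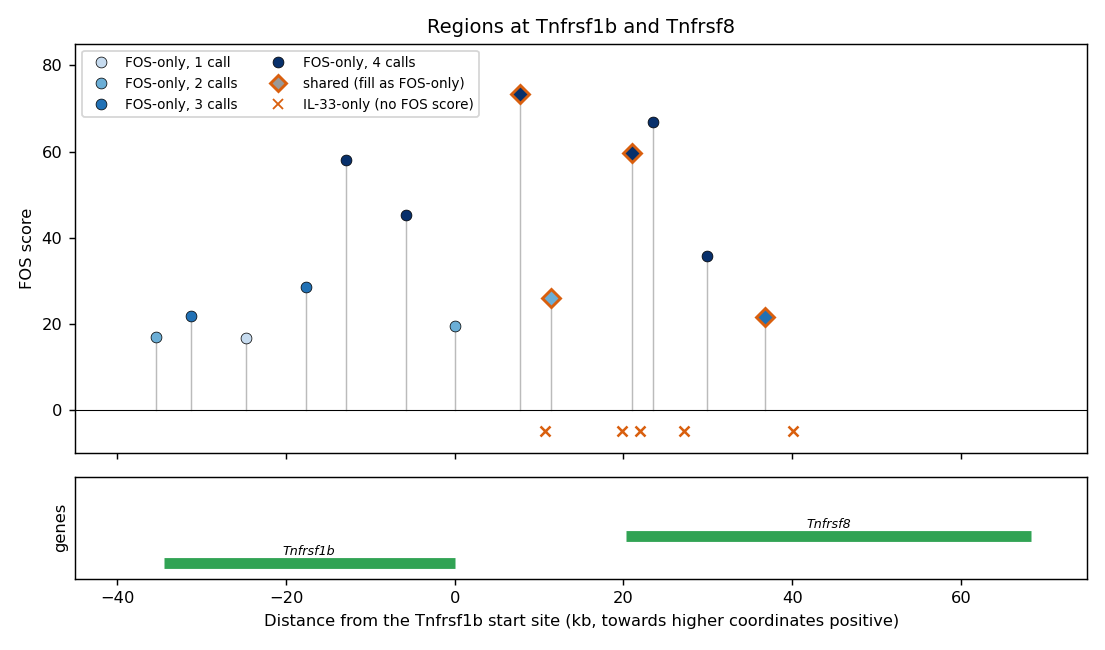
Regions at Tnfrsf1b and Tnfrsf8 by distance of their centre from the Tnfrsf1b start site in kb, with the FOS score on the vertical axis and gene bodies below. Symbols are blue circles for FOS-only regions, darker with more calls, orange-edged diamonds for shared regions, and crosses below 0 for IL-33-only regions. All 9 IL-33 list regions lie above the Tnfrsf1b start on the coordinate axis, from the interval between the genes into Tnfrsf8.

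Of 5 death domain receptor genes 4 had a FOS region (against 50.6% of all coding genes), each with one at its start. Of the 5, 2 had one of 4 calls (against 17.5%). None had a region of the IL-33 list assigned to it, against 5.64% of all coding genes with one. Regions of that list assigned to other genes lay within 100 kb of Fas, 2 of them, and of Tnfrsf1a, 1. Tnfrsf1a encodes TNF receptor 1, which binds soluble TNF. It had a region of 28.2 with 3 calls across its start (chromosome 6, 125349487 to 125349859) and one of 18.2 with 1 call inside the gene. Fas scored 38.8 with 4 calls at its start (chromosome 19, 34290202 to 34290646), and a region of 15.1 with 2 calls lay 62382 bp outside the gene. Tnfrsf21, the gene of death receptor 6, had 8 regions between 8.88 and 29.7, of which 1 had 4 calls. Tnfrsf25, the receptor of TL1A, had 1 region of 7.37 with 1 call. Tnfrsf10b, the TRAIL receptor gene, had none, and the nearest FOS region lay 34815.5 bp away. Of the 2 genes for receptors of TNF itself, Tnfrsf1b had 8 FOS regions, 3 of 4 calls and 1 shared, and Tnfrsf1a had 2, 0 and 0. No replicate error is available for that difference, and it depends on the assignment to the nearest gene. Counted within 100 kb whichever gene they were assigned to, 16 FOS regions lay near Tnfrsf1b and 15 near Tnfrsf1a. Of these, 4 and 1 were shared. Tnfrsf1b is also the longer gene, at 34503 bp against 12761 bp.

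The other receptor genes included several with high FOS scores. Tnfrsf14, the gene of the LIGHT receptor HVEM, had 4 FOS-only regions, and the highest scored 69.1 with 4 calls at 7092 bp outside the gene (chromosome 4, 154911235 to 154911555). The others scored 42.6 and 27.3 with 4 calls and 27.7 with 2 calls. Tnfrsf11a encodes RANK, the receptor through which RANKL drives osteoclast formation. It had 6 regions, 3 of them with 4 calls, at 44.4, 35.8 and 21.8 in the gene body. Ltbr, the lymphotoxin beta receptor gene, had 1 region of 37.7 with 4 calls at its start (chromosome 6, 125313767 to 125314111). The 3 genes for receptors of BAFF and APRIL, known from B cells, each had at least 1 FOS region, against 50.6% of all coding genes. The highest were 32.5 with 2 calls at Tnfrsf17, 29.3 with 2 calls at Tnfrsf13b and 23.6 with 3 calls at Tnfrsf13c. Of their 8 regions 1 had 4 calls (12.5%), against 23.0% of all assigned FOS regions. Lower values stood at Tnfrsf12a, the TWEAK receptor gene (15.1, 1 call), at the decoy TRAIL receptor gene Tnfrsf23 (14.2, 2 calls) and at Tnfrsf26 (9.24, 1 call).

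**Figure D4:**
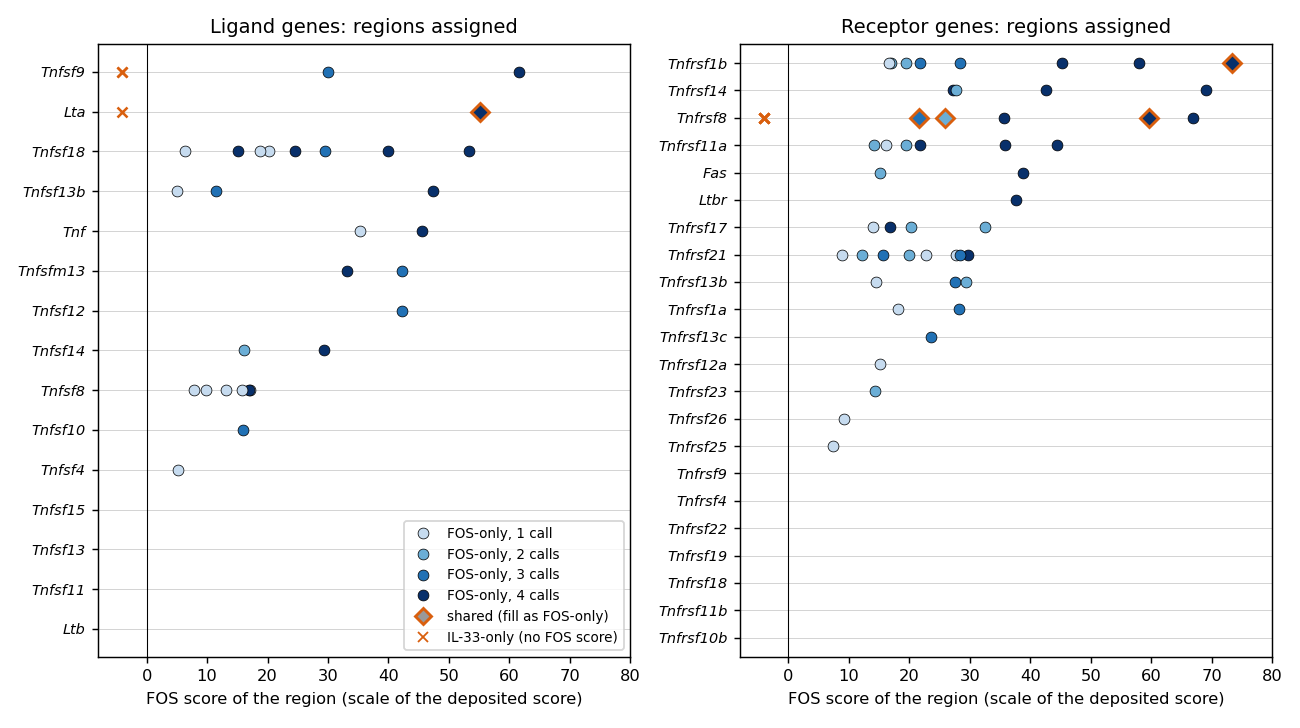
Every region assigned to a ligand gene (left) or receptor gene (right), by FOS score on the scale of the deposited score. Blue circles are FOS-only regions, darker with more calls, orange-edged diamonds are shared regions, and crosses left of 0 mark genes with IL-33-only regions, overlaid where there are several. Tnfrsf1b leads with 73.4 and the rows without symbols had no region.

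Ligand and receptor of a pair could differ widely in this table, but not all did. Fas reached 38.8 and Fasl 36.5. The differing pairs named next are examples, and not every pair was compared. Tnfsf9 reached 61.5 while its receptor gene Tnfrsf9 had no region assigned, and the same held for Tnfsf18, at 53.2, and Tnfrsf18. Both contrasts depend on the assignment to the nearest gene. A FOS region of 38.1 lay 5676 bp from Tnfrsf9, and one lay 3156 bp from Tnfrsf18, each nearer to another gene. The top regions of Tnfsf9 and Tnfsf18 themselves lay 5364 and 12255 bp outside their genes. In the opposite order, Tnfrsf11a reached 44.4 and Tnfsf11, the RANKL gene, had no FOS region within 100 kb. Tnfrsf8 reached 66.9 and Tnfsf8 17.1. That region of Tnfrsf8 lay 44.81 kb from its start and 23.48 kb from the Tnfrsf1b start, so this contrast also depends on the assignment. Of the pair Tnfsf14 and Tnfrsf14, the values were 29.3 and 69.1. These are single values of a pooled table, and the differences have no error.

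No FOS region was assigned to 11 genes. They were the ligand genes Ltb, Tnfsf11, Tnfsf13 and Tnfsf15 and the receptor genes Tnfrsf4, Tnfrsf9, Tnfrsf10b, Tnfrsf11b, Tnfrsf18, Tnfrsf19 and Tnfrsf22. For 8 of them a FOS region stood within 100 kb and nearer to another gene. Tnfrsf9, for instance, had a region of 38.1 with 2 calls at 5676 bp, assigned to Park7. Tnfrsf4 and Tnfrsf18, which encode costimulatory receptors of T cells, had the nearest regions 15437 and 3156 bp away. No FOS region lay within 100 kb of Tnfsf11, Tnfrsf11b, the gene of its decoy receptor osteoprotegerin, or Tnfrsf19.

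Shared regions stood at 3 genes, Lta, Tnfrsf1b and Tnfrsf8 (8.11%, against 4.34% of all coding genes). Regions of the IL-33 list, shared or not, stood at these and Tnfsf9, 4 genes (10.8%, against 5.64%). These shares rest on few genes, of which Tnfrsf1b and Tnfrsf8 are neighbours. Under a limit of 1 kb from the gene body, Tnfrsf8 alone kept a region of either kind, 1 of 37 genes, against 2.64% of all coding genes for shared regions and 3.6% for the IL-33 list, so the higher shares in the family were not seen under that limit. The family held 5 shared regions, 3 of them with 4 calls, and 8 IL-33-only regions. No region of the IL-33 list lay within 1 kb of the start of its family gene, of 11 with a start in the promoter table, and the nearest was 3.06 kb away. Over all coding genes 5 of 2085 (0.24%) did. Of FOS-only regions of the family 14 of 67 lay within 1 kb of the start (20.9%), against 25.6% over all genes. The rarity of the IL-33 list at starts was thus not particular to this family.

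**Figure D5:**
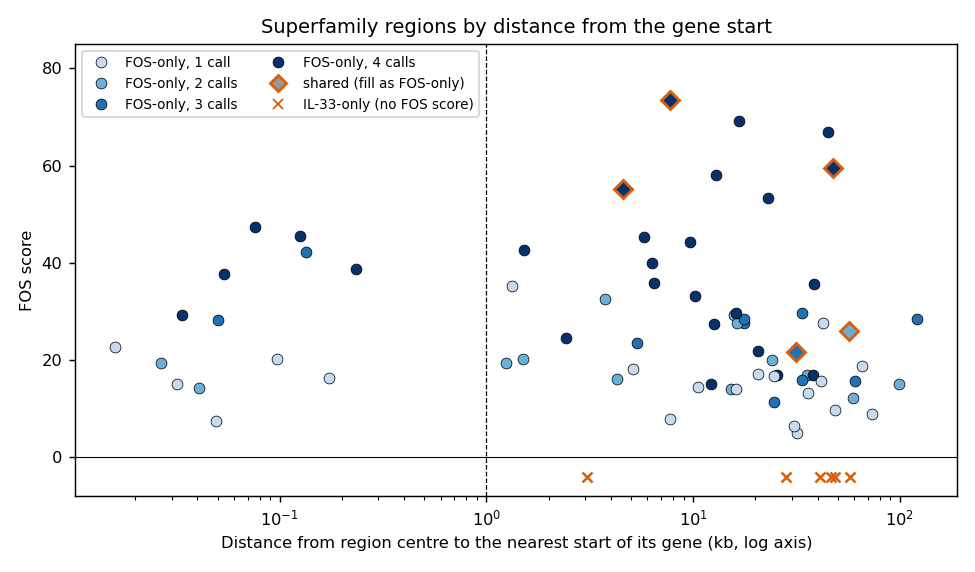
FOS score of each family region against the distance from its centre to the nearest start of its gene, in kb on a log axis, for genes with a promoter entry. Circles are FOS-only regions, darker with more calls, diamonds are shared regions, crosses below 0 are IL-33-only regions, and the dashed line marks 1 kb. FOS-only regions lie on both sides of the line, while every shared and IL-33-only region lies to its right.

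Related genes were counted for context, beside all coding genes, of which 50.6% had a FOS region and 4.34% a shared region. Superfamily members under other symbols had a FOS region at 5 of 10 genes, with Relt at 62.9, Cd27 at 37.8 and Fasl, the ligand of Fas, at 36.5, and a shared region at none. Cd40 reached 18.0. Edaradd, which encodes an adaptor of the receptor EDAR and was counted in the same list, reached 15.3. Adaptors, kinases and regulators downstream of the receptors had a FOS region at 29 of 33 (87.9%) and a shared region at 10 of 33 (30.3%). The 29 genes had a median length of 34172 bp, against 26502 bp for all coding genes with a FOS region. The highest scores stood at Tnfaip3 (102), which encodes the inhibitor A20, Cflar (73.5), which encodes the caspase-8 inhibitor FLIP, and Map3k14 (66.8), the kinase of the non-canonical NF-kappaB pathway. Genes with a shared region were Tnfaip3, Cflar, Birc3, Traf1, Traf2, Traf3, Tnip1, Otulin, Adam17 and Rhbdf2. Adam17 and Rhbdf2, at 56.4 and 40.6, encode the protease that sheds TNF and a protein needed for its maturation. Cflar had 3 shared and 8 IL-33-only regions. The adaptor genes Tradd and Fadd of the death domain receptors had no FOS region.

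The labelled cell type was checked with markers. All 12 microglia markers had a FOS region, among them Cx3cr1 (126) and Csf1r (105), and 11 had one of 4 calls. Shared regions among all markers stood at Trem2 of the microglia list and Cldn5 of the endothelial list. T and NK cell markers had a FOS region at 2 of 10, Cd4 and Il7r, with none at the defining genes Cd3d, Cd3e and Cd3g and no region of 4 calls. B cell markers had one at 4 of 6, with no score above 19.3, and 3 of the 6, Cd79a, Ms4a1 and Blk, had a region of 4 calls (against 17.5% of all coding genes). Monocyte and neutrophil markers had a FOS region at 3 of 7, with none above 40.9, and 2 of the 7 had a region of 4 calls. Neuron markers stood at 2 of 8, astrocyte markers at 3 of 5 and oligodendrocyte markers at 1 of 5. Endothelial markers stood at 4 of 5, with a highest score of 61.0. A region of 4 calls stood at 3 of 5 endothelial, 1 of 5 astrocyte and 1 of 8 neuron markers, and at no oligodendrocyte marker. Besides microglia, the B cell, astrocyte and endothelial lists exceeded the 50.6% of all coding genes with a FOS region. These lists and that of monocytes and neutrophils also exceeded the 17.5% with a region of 4 calls, each on few genes. The share of other cells in the sorted samples was not tested, nor was its part in the regions at B and T cell genes of the family.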

How the data were processed

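FOS ChIP-seq and input libraries came from 4 mice. Per the submitters' processing notes, Bowtie2 and HOMER were used on mm10 (GRCm38), and per the file headers the authors merged their FOS peak list with the IL-33 list by mergePeaks. How peaks were called and inputs used was not given in the sources used here. In this file the authors deposited 1 score per region, averaged over merged peaks. All 1300 IL-33-only regions had a score of 0, so scores of shared regions were multiplied by all merged peaks and divided by FOS peaks. In 1517 shared regions with 1 FOS peak and a score of 10 or more, score times calls was then a whole multiple of 0.1 (within 0.02 of that step) in 98.7%, against 45.9% before.

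Regions were assigned by their centre to the nearest coding gene body within 100 kb, or to each where bodies overlapped, on 21 chromosomes, and 3 regions elsewhere were left out. Python 3.11.15, pandas 2.3.3 and numpy 2.4.6 were used, and the assignment was checked on simulated regions. A region counted as on a promoter with an overlap of 1 bp or more.

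The family and all lists were chosen with earlier results of these data known. Every family gene is named, and of the pathway lists the 3 highest genes and those with shared regions. Other genes of these lists named in the text were chosen after their values were seen. The values of 1 marker gene are not reported here. No test was made, since all 4 mice had IL-33 and the table holds no values per library. Alternatives changed the distance limit, the assignment, the score threshold, the calls required, the score and the peaks counted as shared.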

Additional observations from a re-analysis of the deposited data

How the results depend on the processing

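The counts were recomputed under other choices, and 31 of 41 values stayed within 1.5 times the reported ones. Under a limit of 1 kb from the gene body, 1 gene had a shared region (against 2.64% of all coding genes) and 1 an IL-33 list region (against 3.6%), both Tnfrsf8, and 47 FOS regions were counted in place of 76. With each region given to all genes within 100 kb, a shared region stood at 8 genes (against 14.7% of all coding genes), an IL-33 list region at 10 (against 19.1%) and a 4-call region at 27 (against 49.1%), with 215 FOS regions. Restricting FOS regions to scores at or above the median left 43 regions. Restricting them to 4 calls left 27 regions at 16 genes. When regions were given to all genes within 10 kb, Tnf gained the shared region assigned to Lta. With single peaks of each list required, 2 genes had a shared region, because that of Lta joined 3 IL-33 list peaks. The scores as deposited gave a median highest score of 31.1. No paired analysis was possible because the table holds no values per library. For the same reason no mouse could be left out in turn, and the depth behind any region is unknown.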

Other observations

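Of 7 genes whose symbols start with Tnfaip, the A20 gene apart, 4 had a FOS region (57.1%, against 50.6% of all coding genes). Tnfaip8, which encodes a regulator of cell death, had 15 FOS regions, 7 of them with 4 calls, and 6 shared regions, with a highest score of 63.7. It also had 3 IL-33-only regions. Tnfaip2 had 4 FOS regions, none shared, and 1 IL-33-only region, with a highest score of 36.2. Tnfaip8l2 reached 30.3, and Tnfaip1, Tnfaip6 and Tnfaip8l3 had no FOS region. Counted by promoter window, TGANTCA stood in 277 of 5820 windows with a FOS region (4.76%) and in 1209 of 15443 without (7.83%) over all coding genes. In the TNF superfamily it stood in 5 of 16 windows with a FOS region and in 2 of 18 without, where 2 overlapping windows of Tnfsf13b share a single match.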
